A study of Mus musculus with 6 samples.

Results

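The ATP-binding cassette (ABC) transporters are described here in cultured mouse brain endothelial cells, with and without the ETS-family transcription factors Erg and Fli1. Members were taken by gene symbol, as every gene named Abca, Abcb, Abcc, Abcd, Abce, Abcf or Abcg followed by a number. This found 50 of the 52636 genes in the table. Of these, 40 had at least 10 counts summed over the 6 libraries and were analysed, and 30 passed the filter on low counts and were tested. Endothelial cells were isolated from mouse brain, cultured, and sorted alive as cells with CD31 and VE-cadherin but without the leukocyte protein CD45 on their surface. The control group was 3 libraries of wild-type cells and the knockout group was 3 libraries of cells with a deletion of both Erg and Fli1. All cultures, controls included, had received 4-hydroxytamoxifen (4-OHT), the drug used to trigger the deletion. The strain, the age of the mice, the Cre driver and whether any libraries share an animal were not given in the sources used here. The p-values therefore rest on the spread among these 6 libraries, which may be technical in part.

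ABC proteins bind ATP on paired cytoplasmic domains and, in most members, use it to move a substrate across a membrane. In the blood-brain barrier the best known of them are the drug efflux pumps P-glycoprotein and Abcg2 (breast cancer resistance protein), which return lipid-soluble drugs to the blood. Others export cholesterol and phospholipid, serve mitochondria, lysosomes and peroxisomes, or form part of potassium channels. The Abce and Abcf proteins have no membrane domain and act in translation.

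The libraries held 17274639 to 19410458 counts. Levels are given as CPM, which are counts scaled to a common library size after TMM normalization, and changes as log2 fold changes of knockout over control. Erg had 496 ± 238 CPM (SD, n = 3) in controls and 89.3 ± 19.6 CPM in knockouts, a log2 fold change of -2.48 (edgeR adjusted p = 0.0137). Fli1 had 79.7 ± 14.3 and 64.1 ± 6.14 CPM (edgeR adjusted p = 0.181, and 0.00346 without control 2). Whole-gene counts include transcripts that lack deleted exons. Control 2 stood apart. Its summed level of 10 fibroblast markers was 12367 CPM, where controls 1 and 3 had 409 and 1100 CPM and the knockouts 1645 to 2865 CPM. Most of the knockout sum was Dcn, at 1343 to 2110 CPM, and without it control 2 had 12050 CPM, controls 1 and 3 405 and 1093 CPM and the knockouts 301 to 756 CPM. The summed level of 12 pericyte and smooth muscle markers in control 2 was 4172 CPM, where controls 1 and 3 had 459 and 566 CPM and the knockouts 730 to 1506 CPM. The summed level of 10 endothelial markers in it was 6599 CPM, where controls 1 and 3 had 16260 and 16204 CPM and the knockouts 3775 to 4639 CPM. Of those 10 markers, 9 fell in the knockouts with edgeR and 7 with limma voom, where 11.7% of all genes tested fell with edgeR. Eng did not pass with all libraries. Without control 2 it fell, with a log2 fold change of -0.39 (edgeR adjusted p = 0.00466). Slc6a13 of the fibroblast list had 0 counts in all libraries. So did Tyrobp, Olig1, Ttr, Hba-a1 and Hbb-bs of the lists for other cells. Other genes of those lists were detected, some of them higher in the knockouts. Mean Mbp of the oligodendrocyte list rose from 0.198 to 2.41 CPM (edgeR adjusted p = 0.00803). Mean Krt18 of the epithelial list rose from 2.26 to 7.78 CPM (edgeR adjusted p = 0.0440). Of the tested genes of the lists for other cells, at most 2 per list, 0 were called lower. Over all genes tested, 11.7% were called lower and 13.1% higher, so these few genes show little. Without control 2, the astrocyte list had 1 gene called higher and 1 lower (Aldh1l1, edgeR adjusted p = 0.0265). The X-inactivation gene Xist was at 611 CPM in control 2 and at 431 and 573 CPM in knockouts 2 and 3, and at most 5.32 CPM in the others. The Y-linked Ddx3y was at 110 and 114 CPM in controls 1 and 3 and 116 CPM in knockout 1, and at most 0.391 CPM in the others. Without control 2, the controls left all had high Ddx3y and low Xist, while knockouts 2 and 3 had the reverse. Every result given without control 2 carries this imbalance between the groups. The part of other cells and of the Xist and Ddx3y difference in the results was not tested. Fewer cells of a type and less RNA per cell cannot be told apart in bulk libraries.

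Of the 30 tested ABC genes, 4 rose and 6 fell in the knockouts (edgeR quasi-likelihood test, adjusted p under 0.05), and 20 did not pass. The genes that fell were Abca4, Abca8b, Abcc9, Abcg1, Abcd4 and Abcg2, and those that rose were Abca9, Abcc4, Abcb1b and Abcc5. The called share was 33.3%, and among all 13901 genes tested it was 24.7%, with 13.1% higher and 11.7% lower. The median log2 fold change was 0.02 over the members and 0.00 over all genes. The falls were the larger changes: 4 of the 6 exceeded 2.7 on the log2 scale, while only Abca9 among the genes that rose exceeded 1. Without control 2, 9 rose and 10 fell, 63.3% of the members against 50.3% of all genes (25.5% higher, 24.8% lower). The 10 original calls were all among these. With library-size scaling alone, 6 rose and 6 fell. That scaling moved the share of higher calls among all genes from 52.8% to 66.4%.

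**Figure D1:**
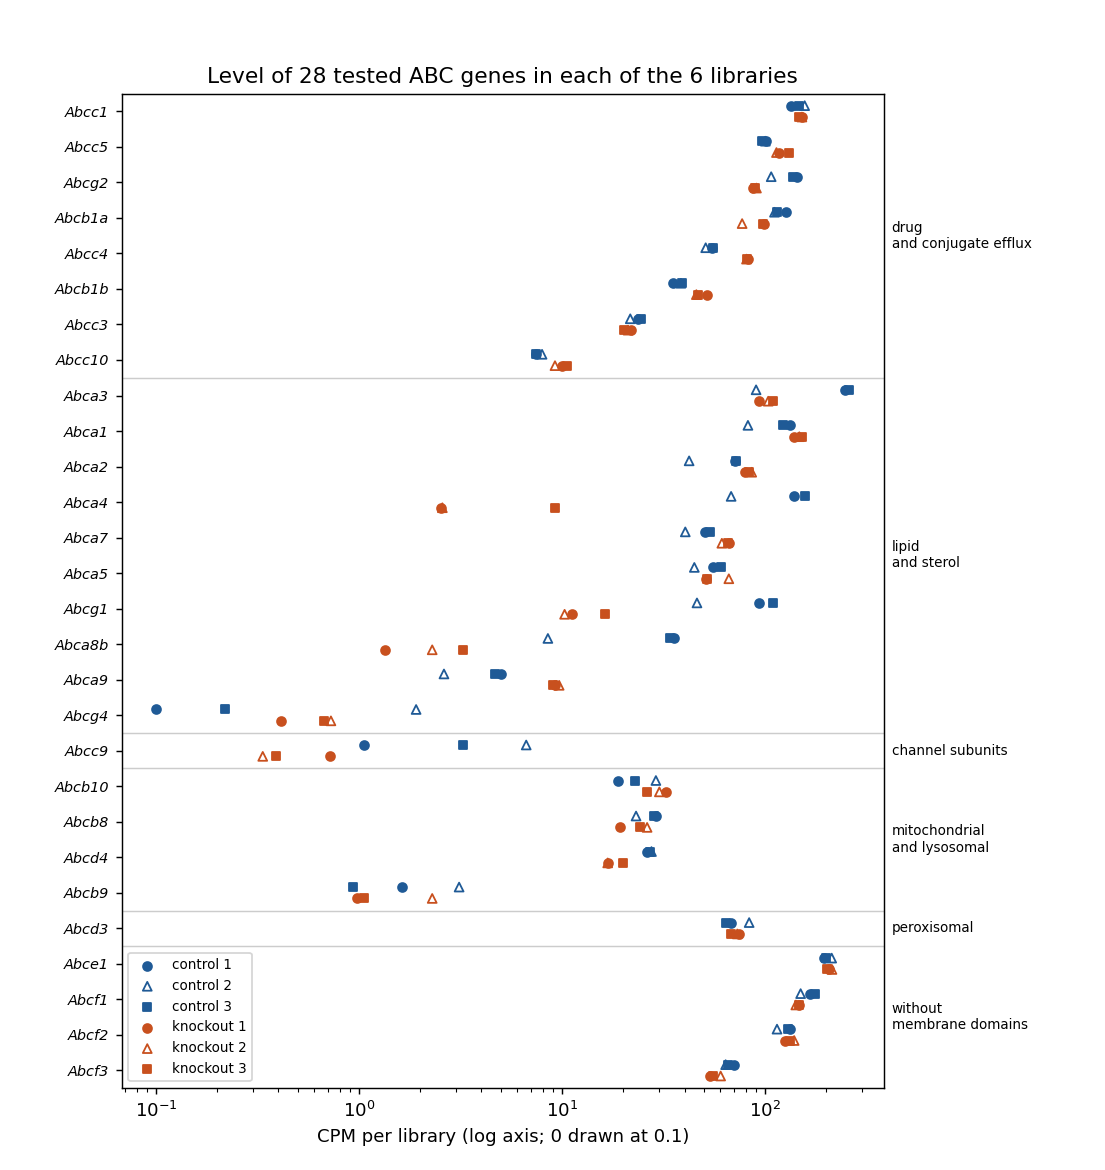
CPM in each of the 6 libraries for 28 of the 30 tested ABC genes, on a log axis, grouped by role (blue, controls; orange, knockouts; open triangles, replicate 2). Abca4, Abcg1 and Abca8b show the widest gaps between the groups, and control 2 lies below controls 1 and 3 in most of the lipid and sterol genes.

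In control 2, 19 of the 30 tested members lay below both other controls and 9 above both, whereas over all genes tested the numbers were 6084 below and 6087 above. The groups did not overlap for 18 of the 30 members (60%), with the knockouts above for 9 and below for 9. Over all genes tested 46.3% did not overlap, 25% with the knockouts above and 21.3% below.

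Among the lipid and sterol transporters, Abca4, best known from the retina, fell furthest. Abca4 encodes the importer that clears retinaldehyde bound to phosphatidylethanolamine from photoreceptor discs. It had 138, 67.8 and 158 CPM in controls 1, 2 and 3, and 2.52, 2.57 and 9.25 CPM in knockouts 1, 2 and 3. All knockouts lay below all controls, and knockout 3 kept the most. The knockout mean was 3.94% of the control mean, with a log2 fold change of -4.67 (adjusted p = 0.00764 by edgeR, SE 0.68). Without knockout 3 the log2 fold change was -5.57. Abca4 (ENSMUSG00000028125) lies on GRCm38 chromosome 3, 122044443 to 122180123, plus strand, and shares no exons or transcript sequence with other annotated genes.

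Abcg1, a sterol transporter that loads cholesterol onto high-density lipoprotein, fell as well. Its levels were 92.8, 46.1 and 109 CPM in controls 1, 2 and 3 and 11.2, 10.3 and 16.2 CPM in knockouts 1, 2 and 3. The groups did not overlap, with control 2 the lowest control. This gave a log2 fold change of -2.72 (adjusted p = 0.00666 by edgeR, SE 0.38), 15.2% of the control mean, and -3.04 without control 2. Abcg1 (ENSMUSG00000024030) lies on chromosome 17, 31057675 to 31117988, plus strand.

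Its usual partner in cholesterol export, Abca1, did not pass the test. Abca1 loads lipid onto lipid-poor apolipoprotein A-I. It had 132, 82.1 and 122 CPM in controls 1, 2 and 3 and 138, 147 and 152 CPM in knockouts 1, 2 and 3. Every knockout was above every control, by a log2 fold change of 0.38 (adjusted p = 0.181 by edgeR, SE 0.18), and by 0.16 without the low control 2 (edgeR adjusted p = 0.0776). The values of the pair thus lay in opposite directions, with only the fall of Abcg1 past the threshold. The difference between the 2 genes was not tested.

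Abca8b fell from 35.7, 8.49 and 34.1 CPM in controls 1, 2 and 3 to 1.34, 2.29 and 3.23 CPM in knockouts 1, 2 and 3. Control 2 lay closer to the knockouts than to the other controls. This gave a log2 fold change of -3.51 (adjusted p = 0.0155 by edgeR, SE 0.65) and -3.97 without control 2 (edgeR adjusted p = 3.781e-05). The call was lost without control 3 or any 1 knockout library (edgeR adjusted p up to 0.0761), and with limma voom (adjusted p = 0.0715).

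Abca9 rose, although it is a near neighbour of Abca8b. Its levels were 5.01, 2.61 and 4.66 CPM in controls 1, 2 and 3 and 9.20, 9.65 and 8.97 CPM in knockouts 1, 2 and 3, with no overlap. The log2 fold change was 1.18 (adjusted p = 0.0259 by edgeR, SE 0.26), and the call was lost without any 1 library other than control 2 (edgeR adjusted p up to 0.0959). Abca8b, Abca8a, Abca9, Abca6 and Abca5 stand in this order on the minus strand of chromosome 11, from 109932190 to 110337716, with no other protein-coding gene between them. Abca5, a gene of endosomes and lysosomes at the far end, had 53.5 ± 8.17 CPM over the controls and 56.1 ± 8.65 CPM over the knockouts (edgeR adjusted p = 0.781). Abca8a and Abca6 had too few counts to be tested. Abca8a had 19 counts over the controls, 16 of them in control 2, and 4 over the knockouts. Abca6 had 26 counts over the controls and 12 over the knockouts. Of the transcript sequences of 50 bases, 1.42% of those of Abca8b also occurred in Abca8a and 0.16% of those of Abca9 in Abca6.

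**Figure D2:**
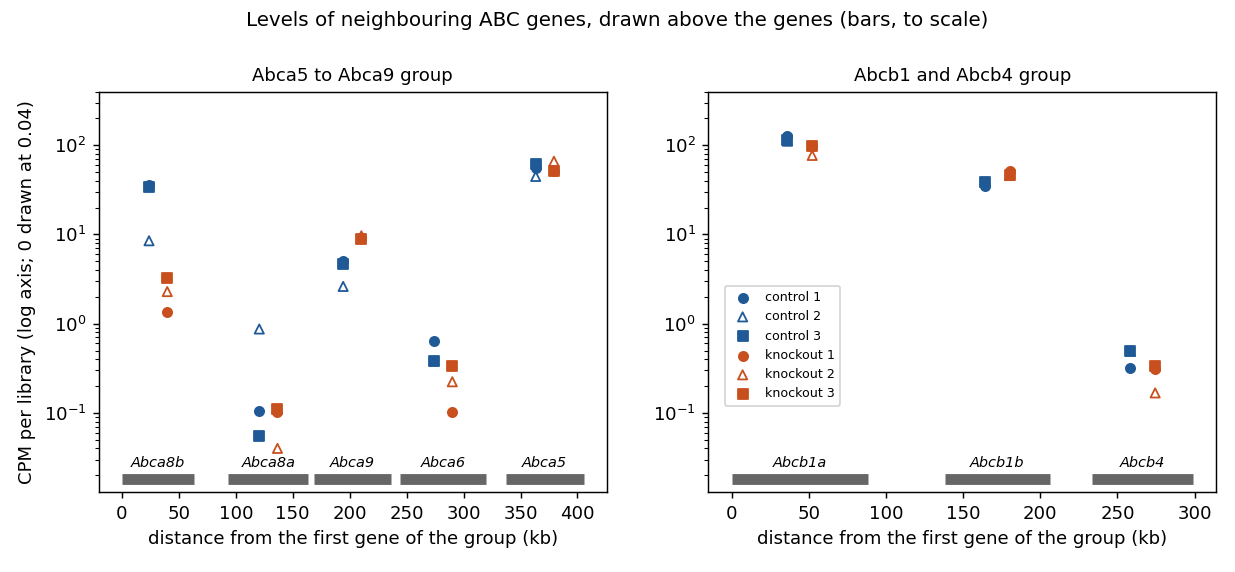
CPM per library on a log axis for 2 groups of neighbouring ABC genes, drawn above the genes to scale in kilobases from the first gene (blue, controls; orange, knockouts; open triangles, replicate 2). Abca8b lies lower and Abca9 higher in the knockouts, and Abcb1a lies lower and Abcb1b higher.

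Abca3, known for packing surfactant phospholipid into the lamellar bodies of lung cells, had 248, 90.1 and 259 CPM in controls 1, 2 and 3. The knockouts had 93.1, 103 and 109 CPM. Control 2 was thus at the level of the knockouts, while controls 1 and 3 were well above it. This gave a log2 fold change of -0.97 (adjusted p = 0.130 by edgeR, SE 0.39). Without control 2 it was -1.35 and passed the test (edgeR adjusted p = 1.690e-05). Abca3 also passed with DESeq2 over all 6 libraries (adjusted p = 0.0395), but not with limma voom (adjusted p = 0.1975). An opposite-strand gene covers 9.75% of the Abca3 exons, and the strand setting of the counting was not given in the sources used here.

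Abca2 and Abca7, both transporters of membrane lipids, had higher knockout values in every library without passing. Abca2 had 61.6 ± 16.9 CPM over the controls and 82.5 ± 3.37 CPM over the knockouts (edgeR adjusted p = 0.196), and Abca7 48.1 ± 6.92 and 64.3 ± 2.81 CPM (edgeR adjusted p = 0.0510). Both passed without control 2, with log2 fold changes of 0.18 and 0.27 (edgeR adjusted p = 0.0245 and 0.00962). Over all 6 libraries, Abca7 passed with DESeq2 and limma voom (adjusted p = 0.0292 and 0.0456). Abca2 passed with neither (adjusted p = 0.213 and 0.167). Abcg4, a sterol transporter best known from neurons and glia, had 0, 1.91 and 0.219 CPM in controls 1, 2 and 3 and 0.411 to 0.725 CPM in knockouts. Its direction turned on control 2, with a log2 fold change of -0.23 with that library and 2.37 without it (edgeR adjusted p = 0.909 and 0.0542). Over all 23 lipid and sterol genes, 10 were tested, of which 1 rose and 3 fell (13.1% and 11.7% of all genes), with a median log2 fold change of -0.08. Their summed level was 711 ± 246 CPM over the controls and 481 ± 24.8 CPM over the knockouts. Control 2, at 428 CPM, lay below the knockouts, at 453 to 500 CPM, and controls 1 and 3 above them, at 829 and 875 CPM.

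Among the 12 drug and conjugate efflux genes, of which 8 were tested, 3 rose and 1 fell, where 24.7% of all genes were called (13.1% higher, 11.7% lower). Their summed level was nearly the same in both groups, at 614 ± 17.9 CPM over the controls and 611 ± 19.3 CPM over the knockouts. The share of each gene in this sum was not tested. Abcg2 fell from 144, 107 and 137 CPM in controls 1, 2 and 3 to 86.9, 90.4 and 89.3 CPM in knockouts 1, 2 and 3. The groups did not overlap, and the log2 fold change was -0.54 (adjusted p = 0.0249 by edgeR, SE 0.12), 68.8% of the control mean. The call was lost without any 1 library other than control 2 (edgeR adjusted p up to 0.0986), and without control 2 the log2 fold change was -0.69. Abcg2 (ENSMUSG00000029802) lies on chromosome 6, 58584523 to 58695676, plus strand.

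Abcc4 rose, with the smallest standard error among the called members. It encodes the multidrug resistance protein that exports cyclic nucleotides, prostanoids and nucleoside drugs. Its levels were 54.7, 50.9 and 55.1 CPM in controls 1, 2 and 3 and 82.1, 80.8 and 81.3 CPM in knockouts 1, 2 and 3. The knockout mean was 152% of the control mean, with a log2 fold change of 0.60 (adjusted p = 0.00256 by edgeR, SE 0.06). It stayed between 0.53 and 0.61, and passed, without any 1 of the 6 libraries. Abcc4 (ENSMUSG00000032849) lies on chromosome 14, 118482692 to 118706219, minus strand.

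Abcc5, another exporter of organic anions such as cyclic nucleotides, rose from 101, 100.03 and 95.8 CPM in controls 1, 2 and 3 to 117, 113 and 131 CPM in knockouts 1, 2 and 3. The log2 fold change was 0.29 (adjusted p = 0.0362 by edgeR, SE 0.07). The call was lost without any 1 library other than control 2 and with RLE or upper-quartile scaling (edgeR adjusted p = 0.0540 and 0.0509).

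The P-glycoprotein genes lay in opposite directions. Abcb1a is the copy best known from brain capillaries. It had 127, 111 and 115 CPM in controls 1, 2 and 3 and 98.97, 76.9 and 97.6 CPM in knockouts 1, 2 and 3. All knockouts lay below all controls, but the log2 fold change of -0.37 (SE 0.12) did not pass (edgeR adjusted p = 0.0716). It was -0.44 and passed without control 2 (edgeR adjusted p = 0.0185). With all 6 libraries Abcb1a passed with DESeq2 (adjusted p = 0.0277) but not with limma voom (adjusted p = 0.0696). Abcb1b, the copy better known from other tissues, rose from 35.3, 38.4 and 38.7 CPM in controls 1, 2 and 3 to 51.8, 45.8 and 46.6 CPM in knockouts 1, 2 and 3. The log2 fold change was 0.36 (adjusted p = 0.0267 by edgeR, SE 0.08), a call lost without any 1 library other than control 2 (edgeR adjusted p up to 0.0981). Abcb1a made up 78.2%, 74.3% and 74.8% of the summed level of the pair in controls 1, 2 and 3 and 65.6%, 62.7% and 67.7% in knockouts 1, 2 and 3. The means of 75.8 ± 2.16% and 65.3 ± 2.52% differed by -10.4 percentage points (two-sided exact permutation test, p = 0.1, the smallest that 3 against 3 libraries allow).

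These genes are close copies. Abcb1a (ENSMUSG00000040584) and Abcb1b (ENSMUSG00000028970) lie 49571 bases apart on the plus strand of chromosome 5, from 8660077 to 8748575 and from 8798147 to 8866315. Their coding sequences of 3828 bases were identical at 88.1% of 3892 aligned positions in GENCODE. Transcript sequences of 50 bases that occur in other genes made up 17.6% of those of Abcb1a and 11.6% of those of Abcb1b. An opposite-strand gene covers 10.1% of the Abcb1a exons. How the counting treated reads that match both copies was not given in the sources used here, so the split between them is uncertain. The longest stretch without a difference runs for 338 coding bases, from base 1357 to 1694 of Abcb1a. Its first 150 bases are printed to show a sequence from which a short read cannot be assigned to either gene. It is in lower case throughout because no base in it differs.
Abcb1a and Abcb1b, shared coding sequence: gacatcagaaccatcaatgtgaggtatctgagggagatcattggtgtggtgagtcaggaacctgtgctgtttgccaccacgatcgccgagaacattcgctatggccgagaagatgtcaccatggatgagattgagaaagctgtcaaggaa

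The other tested efflux genes did not pass. Abcc1, which exports glutathione conjugates and leukotrienes, had 134, 156 and 147 CPM in controls 1, 2 and 3 and 152, 151 and 147 CPM in knockouts 1, 2 and 3. Its log2 fold change was 0.05 (adjusted p = 0.684 by edgeR, SE 0.07). Abcc3, an exporter of bile salts and glucuronides, had 23.2 ± 1.42 CPM over the controls and 21.03 ± 0.787 CPM over the knockouts (edgeR adjusted p = 0.241). Abcc10, a broad drug exporter, had 7.59 ± 0.310 CPM over the controls and 9.88 ± 0.661 CPM over the knockouts, with no overlap (edgeR adjusted p = 0.0560, and 0.0295 without control 2). It passed with limma voom (adjusted p = 0.0474) and with library-size scaling alone, but not with DESeq2 (adjusted p = 0.0762). Abcc6 had 24 counts over the 3 controls and 2 over the 3 knockouts, and Abcc12 13 and 1, too few to be tested. With no filter on low counts their edgeR adjusted p was 0.0644 and 0.0711.

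**Figure D3:**
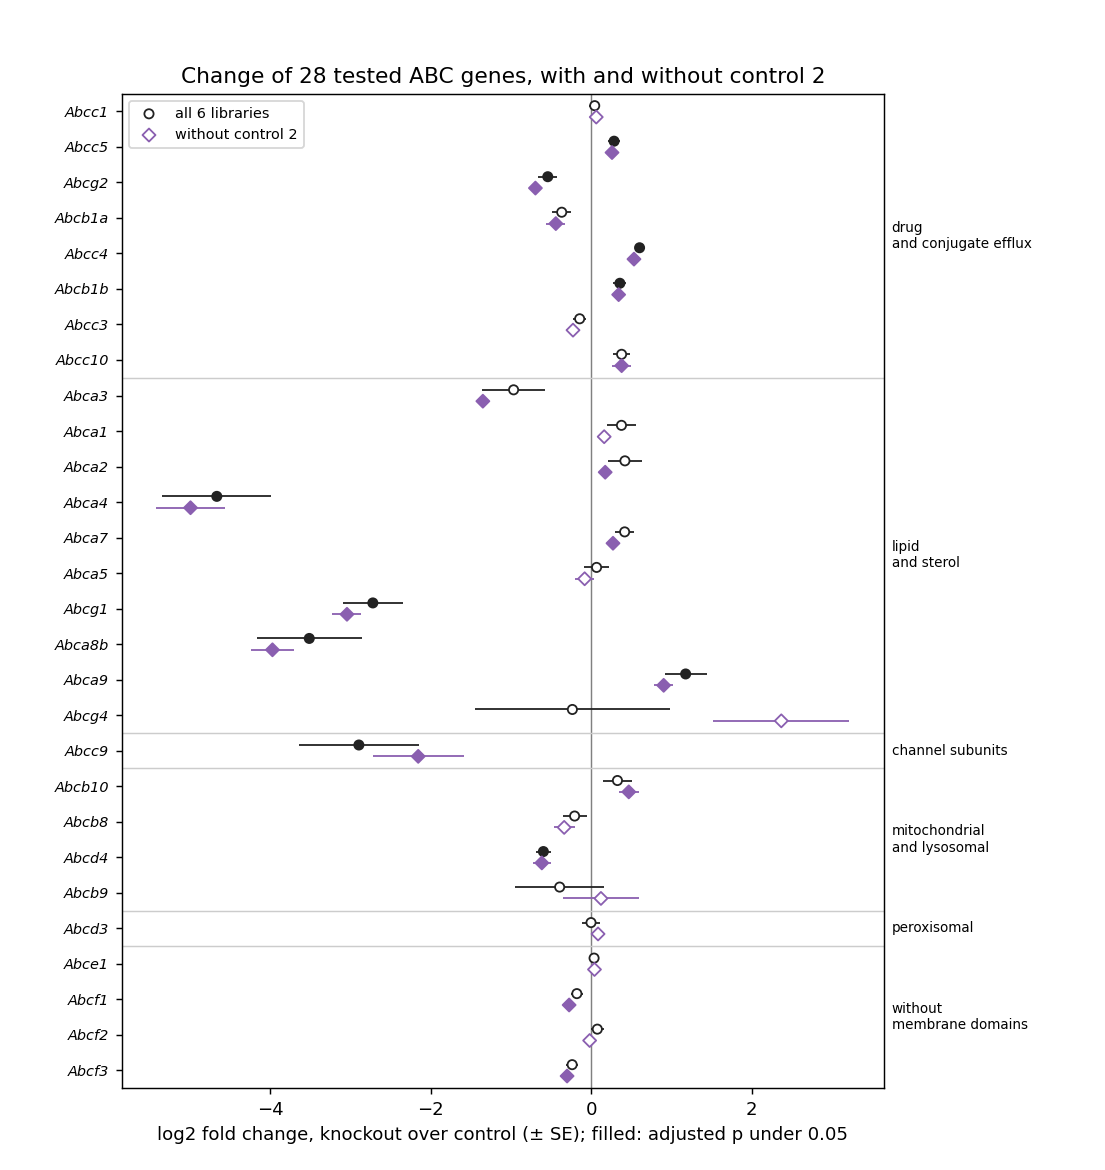
Log2 fold change of knockout over control with its standard error for 28 of the 30 tested ABC genes, from all 6 libraries (black circles) and without control 2 (purple diamonds), with filled symbols for adjusted p under 0.05. Abca4, Abca8b, Abcc9 and Abcg1 lie beyond -2.7 with all libraries, and Abcg4 is on opposite sides of 0 with and without control 2.

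Abcc9 encodes SUR2, the regulatory subunit that pairs with the Kcnj8 channel in vascular ATP-sensitive potassium channels, and it is a widely used pericyte marker. It had 1.05, 6.64 and 3.23 CPM in controls 1, 2 and 3 and 0.719, 0.335 and 0.390 CPM in knockouts 1, 2 and 3. The highest level was in control 2, the library with 264 CPM of the pericyte gene Rgs5. Controls 1 and 3 had 1.95 and 6.85 CPM of Rgs5 and the knockouts 2.12 to 3.12 CPM. Pdgfrb of the same marker list differed, with 20.2, 420 and 40.4 CPM in controls 1, 2 and 3 and 163 to 189 CPM in knockouts. Of the 11 tested pericyte and smooth muscle markers, 0 passed with all libraries, where 24.7% of all genes tested passed. Their summed level spanned 459 to 4172 CPM over the controls, so not passing does not show that these markers were level. Without control 2, 4 of them rose and 0 fell, where 25.5% of all genes rose and 24.8% fell. The log2 fold change of Abcc9 was -2.89 (adjusted p = 0.0398 by edgeR, SE 0.75). Without control 2 the fall was smaller, at -2.15, and still passed (edgeR adjusted p = 0.0176). The call was lost without control 3 or any 1 knockout library (edgeR adjusted p up to 0.142), with the replicate number as a block (adjusted p = 0.126) and with limma voom (adjusted p = 0.118). The level of Kcnj8 was 0.474, 4.19 and 0.877 CPM in controls 1, 2 and 3 and 1.39 to 2.62 CPM in knockouts (edgeR adjusted p = 0.997, and 0.0318 for a log2 fold change of 1.42 without control 2). The other channel subunit, Abcc8, had 2 counts over all libraries.

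Among the 6 mitochondrial and lysosomal genes, of which 5 were tested, Abcd4 fell and the others did not pass, where 24.7% of all genes were called. Abcd4 moves cobalamin (vitamin B12) out of the lysosome. It had 26.2, 27.5 and 27.1 CPM in controls 1, 2 and 3 and 16.8, 16.7 and 19.99 CPM in knockouts 1, 2 and 3, so that control 2 stood with its own group. The log2 fold change was -0.59 (adjusted p = 0.00995 by edgeR, SE 0.10), 66.2% of the control mean, and it missed the threshold without knockout 2 (edgeR adjusted p = 0.0505). Abcd4 (ENSMUSG00000021240) lies on chromosome 12, 84601464 to 84617413, minus strand.

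Abcb10, a mitochondrial gene linked to haem synthesis, had 23.5 ± 5.04 CPM over the controls and 29.6 ± 3.21 CPM over the knockouts (edgeR adjusted p = 0.224, and 0.0189 without control 2). An opposite-strand gene covers 10.3% of its exons. The mitochondrial gene Abcb8 had 26.7 ± 3.17 and 23.2 ± 3.51 CPM (edgeR adjusted p = 0.356). The lysosomal peptide transporter gene Abcb9 had 1.89 ± 1.11 and 1.44 ± 0.735 CPM (edgeR adjusted p = 0.641). Abcb6 had 45 counts in all, and another gene model covers 55.2% of its exons on the same strand.

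Of the peroxisomal half-transporters, which import fatty acids, 2 were tested and neither passed, too few to set against the 24.7% of all genes called. Abcd3 had 71.6 ± 10.2 CPM over the controls and 71.6 ± 3.73 CPM over the knockouts (adjusted p = 0.996 by edgeR, with a log2 fold change of 0.00 and an SE of 0.11). Abcd2 was not tested. Of its 74 counts in the controls 61 lay in control 2, and the knockouts had 12 counts in all.

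The 4 genes without membrane domains did not pass either, and they were among the most abundant of the family. With 24.7% of all genes called, 4 genes are too few to show that this group was spared. Abce1, which splits ribosomes after termination, had 201 ± 9.59 CPM over the controls and 207 ± 6.18 CPM over the knockouts (adjusted p = 0.704 by edgeR, with a log2 fold change of 0.04 and an SE of 0.06). Abcf1, a factor of translation initiation, had 164 ± 13.4 and 145 ± 2.95 CPM (edgeR adjusted p = 0.140). Abcf2 had 125 ± 9.45 and 132 ± 6.76 CPM (edgeR adjusted p = 0.505). Abcf3 had 66.4 ± 3.06 and 56.4 ± 3.47 CPM (edgeR adjusted p = 0.0635). Without control 2, Abcf1 and Abcf3 passed with log2 fold changes of -0.27 and -0.30 (edgeR adjusted p = 0.00361 and 0.00837). Abcf3 also passed over all 6 libraries with DESeq2 (adjusted p = 0.0202) and with RLE scaling, but not with limma voom (adjusted p = 0.0619).

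Per kilobase of annotated exon, the order of the family in controls was led by Abcf2 at 48.7 ± 3.68, Abcf1 at 37.1 ± 3.03 and Abce1 at 33.6 ± 1.60 CPM per kb. Abcf1 and Abce1 did not differ beyond their spread. Abcb1a at 21.4 ± 1.53 and Abca3 at 21.2 ± 10.1 CPM per kb followed, the latter with a spread that spans several ranks. Then came Abcf3 at 18.7 ± 0.859 and Abcg2 at 15.9 ± 2.41 CPM per kb. Among the membrane transporters the order of the 3 highest changed from Abcb1a, Abca3 and Abcg2 in controls to Abcb1a at 16.6 ± 2.26, Abca1 at 14.1 ± 0.682 and Abcc4 at 12.7 ± 0.10 CPM per kb in knockouts. Abcg1 went from rank 8 to rank 23 of the 40 analysed members, and Abca4 from rank 11 to rank 26. This order depended on the length used. Per kilobase of the longest annotated transcript, 8 of the 10 members highest in controls remained, but Abce1 led at 53.1 ± 2.53, before Abcf1 at 51.8 ± 4.23 and Abcf2 at 48.7 ± 3.68, and Abca3 at 30.7 ± 14.6 came before Abcb1a at 23.5 ± 1.68 CPM per kb. On that scale the highest membrane transporters in knockouts were Abcc1 at 22.1 ± 0.390, Abcc5 at 20.8 ± 1.63 and Abcd3 at 20.5 ± 1.07 CPM per kb, and Abcb1a, Abcc4 and Abca1 had ranks 8, 11 and 12. The ranks of Abca4 were 11 and 26 on both scales, and that of Abcg1 went from 12 to 23 on the second.

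**Figure D4:**
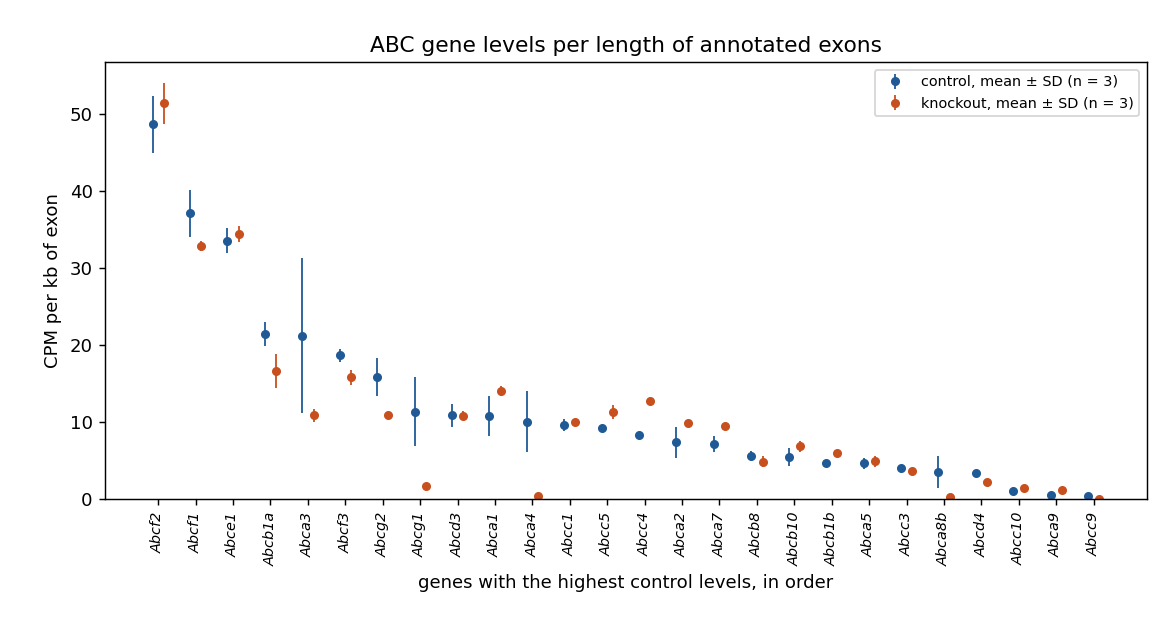
Mean CPM per kilobase of annotated exon with the SD over 3 libraries, for 26 of the 28 ABC genes highest in controls (blue, controls; orange, knockouts). Abcf2, Abcf1 and Abce1 are highest in both groups, and Abcg1 drops from 11.3 to 1.72 and Abca4 from 10.1 to 0.397 CPM per kb.

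The promoter sequences of the members that changed are of interest because Erg and Fli1 bind DNA at the core letters GGAA. RefSeq windows on GRCm38.p6, from 250 bases before to 50 after a start site, were matched by symbol for 38 of the 50 members, in 45 windows. Matches on both strands were counted for the core and for the longer forms CAGGAAG and CCGGAAG, each of which contains it. The core occurred in 44 of 45 windows and in 31532 of all 32851 windows. At least 1 longer form occurred in 10 of the 45 windows (22.2%) and in 20.9% of all windows, so the share in the family was near that of all promoters. The element of the sterol-sensing LXR receptors, AGGTCA repeated after any 4 bases, was searched for without mismatches. It was in none of the 45 windows and in 0.0152% of all windows. So rare an exact form could hardly occur in 45 windows, and elements that depart from it were not searched for. A match is a description of letters and not a binding site. Of the 6 genes that fell, Abcg1 and Abcd4 had no window in the table, the windows of Abca4, Abca8b and Abcc9 held no longer form, and 2 of the 3 Abcg2 windows held CAGGAAG. Of the 4 genes that rose, those of Abcb1b and Abcc5 held no longer form, the first of 2 Abcc4 windows held CCGGAAG from base 6 to base 12 after the start, and the Abca9 window held CAGGAAG. The windows of Abca4 and Abca8b, which fell furthest, are shown with the core in capitals, and those of Abcg2 and Abcc4, which changed in opposite directions, with the longer forms in capitals (a match on the other strand reads TTCC or CTTCCTG).
Abca4, chr3:122044210-122044509, plus strand: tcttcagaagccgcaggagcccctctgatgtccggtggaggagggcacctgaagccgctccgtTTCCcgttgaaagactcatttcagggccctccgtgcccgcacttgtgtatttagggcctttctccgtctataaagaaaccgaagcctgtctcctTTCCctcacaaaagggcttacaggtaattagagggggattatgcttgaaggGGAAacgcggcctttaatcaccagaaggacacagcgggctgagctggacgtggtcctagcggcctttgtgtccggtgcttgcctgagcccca
Abca8b, chr11:109995796-109996095, minus strand: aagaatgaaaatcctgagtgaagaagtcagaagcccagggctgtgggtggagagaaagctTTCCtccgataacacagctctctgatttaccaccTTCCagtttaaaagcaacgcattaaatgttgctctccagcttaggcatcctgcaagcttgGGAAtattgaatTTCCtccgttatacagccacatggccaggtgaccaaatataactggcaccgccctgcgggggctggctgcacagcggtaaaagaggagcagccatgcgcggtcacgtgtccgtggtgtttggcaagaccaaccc
Abcg2, window 2, chr6:58596422-58596721, plus strand: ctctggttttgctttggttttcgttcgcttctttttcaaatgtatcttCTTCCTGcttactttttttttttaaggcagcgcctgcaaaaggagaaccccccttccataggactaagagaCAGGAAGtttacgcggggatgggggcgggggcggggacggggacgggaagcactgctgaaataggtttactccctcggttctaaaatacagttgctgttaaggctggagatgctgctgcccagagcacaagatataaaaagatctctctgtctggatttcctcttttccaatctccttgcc
Abcg2, window 3, chr6:58640296-58640595, plus strand: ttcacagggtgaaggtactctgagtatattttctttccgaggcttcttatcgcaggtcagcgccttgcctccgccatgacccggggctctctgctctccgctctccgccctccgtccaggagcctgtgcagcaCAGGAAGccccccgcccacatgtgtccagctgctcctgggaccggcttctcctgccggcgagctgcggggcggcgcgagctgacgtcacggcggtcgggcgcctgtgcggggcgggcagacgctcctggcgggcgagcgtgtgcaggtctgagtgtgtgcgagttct
Abcc4, window 1, chr14:118706170-118706469, minus strand: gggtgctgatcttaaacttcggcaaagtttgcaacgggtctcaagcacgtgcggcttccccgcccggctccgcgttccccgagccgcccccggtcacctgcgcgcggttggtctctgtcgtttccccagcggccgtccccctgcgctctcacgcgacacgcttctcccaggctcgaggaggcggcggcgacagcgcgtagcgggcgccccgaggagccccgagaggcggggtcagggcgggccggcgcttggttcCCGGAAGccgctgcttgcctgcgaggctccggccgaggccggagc

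Genes that control or serve these transporters were taken from lists of known regulators and partners. Of 14 tested genes of sterol efflux control and cargo, 7 rose and 0 fell, where 13.1% of all genes rose and 11.7% fell (edgeR, and 0 also with DESeq2 and limma voom, and 0 lower at an unadjusted p under 0.05), with a median log2 fold change of 0.39. Apoe, the main lipid carrier of the brain, rose from 75.5 ± 44.4 to 305 ± 28.1 CPM (adjusted p = 0.0303 by edgeR, with a log2 fold change of 2.01 and an SE of 0.47). Nr1h3, the LXR-alpha gene, rose from 4.20 ± 1.93 to 11.8 ± 0.499 CPM (log2 fold change 1.49). Mylip, a target of LXR, rose from 4.06 ± 1.19 to 10.05 ± 0.864 CPM. Without control 2, 11 rose and Scarb1 fell, where 25.5% of all genes rose and 24.8% fell. Scarb1, an uptake receptor for high-density lipoprotein, had 101 ± 17.5 and 92.7 ± 10.8 CPM, and it was picked out after its values were seen. Among these genes the fall of Abcg1, itself a target of LXR, went in the other direction from the values of Nr1h3, Mylip and Abca1, of which Abca1 did not pass. For 10 of the 14 tested genes all knockouts lay above all controls, and for 0 all lay below. Over all genes tested these shares were 25% and 21.3%. Not passing does not show that the remaining 7 uncalled genes were level. Among these 7, Srebf1 was nearly level at 106 ± 2.62 and 105 ± 3.53 CPM (log2 fold change -0.02, edgeR adjusted p = 0.8145).

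Of 7 tested drug-sensing regulators, 3 rose and 0 fell, against the same 13.1% and 11.7% of all genes (edgeR, and 0 also with DESeq2 and limma voom, and 0 lower at an unadjusted p under 0.05). Ahr, the dioxin receptor gene, rose from 28.2 ± 17.7 to 98.97 ± 7.46 CPM (log2 fold change 1.81, edgeR adjusted p = 0.0308). The glucocorticoid receptor gene Nr3c1 rose from 99.6 ± 22.8 to 221 ± 6.82 CPM (log2 fold change 1.15, edgeR adjusted p = 0.00722), and Ppard from 62.95 ± 2.21 to 83.2 ± 3.41 CPM. Nr1i2 and Nr1i3, the PXR and CAR genes, and Ppara had too few counts to be tested. Of the relatives that the name rule leaves out, the peptide transporter gene Tap1 rose from 27.9 ± 3.76 to 55.8 ± 9.26 CPM (log2 fold change 1.002, edgeR adjusted p = 0.00978), and Tap2 had 30.2 ± 8.01 and 46.02 ± 4.84 CPM (edgeR adjusted p = 0.0941). Cftr, the chloride channel gene of the Abcc branch, had 6.79 ± 4.84 and 1.42 ± 0.344 CPM (log2 fold change -2.25, edgeR adjusted p = 0.0807, and 7.669e-05 without control 2). Of the ribosome recycling partners Pelo and Hbs1l and the peroxisome partners Pex3 and Pex19, 0 passed with edgeR, where 24.7% of all genes did. Hbs1l was lower at an unadjusted p under 0.05 and passed with DESeq2, and the other 3 did neither.

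The members with fewest counts show which transporters these cultures hardly express. Abca15 and Abcg8 had 0 counts in all libraries, which allows up to 3 counts in each, or 0.154 to 0.167 CPM. Abca12, Abca14, Abca16, Abcb5, Abcb11, Abcc2, Abcc8 and Abcg5 had 1 to 5 counts in all. Of the 40 analysed members, Abca6, Abca8a, Abca13, Abca17, Abcb4, Abcb6, Abcc6, Abcc12, Abcd2 and Abcg3 did not pass the filter on low counts, with 11 to 86 counts each. None of these 10 passed when the filter was left out (edgeR adjusted p = 0.0644 to 0.748, and 2 were lower at an unadjusted p under 0.05, Abcc6 and Abcc12). DESeq2 and limma voom were not run without the filter.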

How the data were processed

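RNA of sorted endothelial cells was sequenced as polyadenylated libraries, per the labels' protocols with 1 of 2 TruSeq kits, only 1 of which keeps the strand. Which library had which kit, the counting program and its strand setting were not given in the sources used here. The authors deposited raw counts for 52636 Ensembl genes in 6 libraries. Per the submitters' processing notes, FastQC 0.11.5, STAR 2.7.6a and GRCm38 were used. Symbols, positions and exon lengths came from GENCODE M21 (52403 genes matched). Groups and replicate numbers came from the sample titles. Groups were tested by edgeR 4.0.16 under R 4.3.3 over all 6 libraries (filterByExpr, TMM, quasi-likelihood F test, no covariate), with Benjamini-Hochberg adjustment over the 13901 genes tested. The test was tested on simulated counts. All pairs of libraries differed by more than sampling noise (chi-square per degree of freedom of at least 6.17, the lowest between controls 1 and 3). Each library was counted as 1 replicate, but such a difference cannot show that libraries come from separate animals. Intervals and limits from counts cover counting error only.

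Named with values were called members, members averaging 5 CPM or more, 9 transporters fixed by name, and called partners, at most 4 per list. Abcb9, Abcg4, the untested members and the uncalled partners were named in addition, after their values were seen. Values of some genes that this rule selects are not reported here or drawn. The fibroblast sum without Dcn was added after its values were seen. The members and lists were chosen with earlier results of these data known. Alternatives were DESeq2 1.42.0, voom in limma 3.58.1, scaling by RLE, by the upper quartile or by library size alone, no filter, a filter of 1 CPM in 3 libraries, a replicate block, each library left out, library-size scaling of the Abcb1a share (a ratio within a library, which no scaling can change), and transcript length. Protein motifs listed in the plan were not analysed here.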

Additional observations from a re-analysis of the deposited data

How the results depend on the processing

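With any 1 library left out, 1 to 9 ABC genes were called higher and 2 to 10 lower, and 1351 to 7128 genes in all. The lowest of these, 1 higher, 2 lower and 1351 genes, came without knockout 2 and the highest without control 2. Without control 2, 9 rose and 10 fell. Abca4, Abcg1 and Abcc4 kept their calls under every alternative run. DESeq2 called 5 members higher and 9 lower, and 4375 genes in all, and it gained Abca3, Abca7, Abcb1a and Abcf3. With limma voom 6 members were higher and 4 lower, and 3454 genes were called in all, with Abca7 and Abcc10 gained and Abca8b and Abcc9 lost. The replicate number as a block left 1 higher and 4 lower members (Abcc4, Abca4, Abca8b, Abcg1 and Abcd4) and 1844 genes in all. Deviations of same-numbered libraries from their group means had correlations of -0.19, 0.18 and 0.30, and control 1 correlated best with knockout 3. Controls 1 and 3 had the same sign against every knockout, and control 2 the opposite sign. Control 2 is part of the control mean and stood apart, so these correlations cannot show whether the numbers pair the samples. The uncalled Abcd3 changed sign, from -0.0011 to 0.088 with library size only, 0.0073 with limma voom, 0.0122 with no filter, 0.0069 with the replicate block, and -0.0847 to 0.0867 with 1 library left out. With 1 library left out, Abca5 ranged from -0.0806 to 0.1541 (below 0 without control 2 or knockout 2), Abcc1 from -0.0197 to 0.0645 (below 0 without control 1) and Abcf2 from -0.018 to 0.1181 (below 0 without control 2). The cause was not tested. The Abcb1a share kept its direction, with differences of -11.6 to -9.09 percentage points when a library was left out. Depth limits the 10 members that were not tested.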
